A study of Drosophila melanogaster with 11 samples.

Results

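Cuticle protein genes were followed in heads of adult female w1118 Drosophila melanogaster. Members were the probe sets whose platform annotation symbol begins with Cpr and a digit, Lcp, Ccp84, Acp65 or Twdl. There were 109 such probe sets among 18952 on the array, naming 108 cuticle genes, and 6 of them named 2 genes at once. Of the 109, 27 reached log2 4 on at least 2 of the 11 arrays and were tested.

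Every fly in the study carried the w1118 genotype, a loss of function of the eye pigment gene white, and was placed on food as a newly eclosed female. Flies given both agents were kept for 10 days on nicotine at 0.1 mg/ml, after which paraquat at 5 mM was added to the nicotine for 6 days (n = 3 arrays). The paraquat group received plain food for 10 days and 5 mM paraquat for 6 days (n = 2), the nicotine group nicotine alone at 0.1 mg/ml throughout the 16 days (n = 3), and the plain food group no agent for 16 days (n = 3). Each array measured 20 pooled heads, and the study left out 1 other paraquat replicate, with degraded RNA, before normalization. Paraquat is a herbicide that generates superoxide, and nicotine activates acetylcholine receptors.

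The fly cuticle is a layered matrix of chitin fibres and proteins secreted by the epidermis, and in the head it forms the capsule, the bristles, the mouthparts and the lenses of the eye. Most genes named Cpr, Lcp, Ccp and Acp encode proteins with the Rebers and Riddiford domain, which binds chitin. Twdl (Tweedle) genes encode another cuticle protein family. Larval, pupal and adult cuticles use different sets of these genes, and names such as larval cuticle protein record the stage in which a protein was first described.

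Only a minority of the family gave a signal in these heads. The 27 probe sets that reached the filter made up 24.8% of the members, while 48.5% of all non-control probe sets reached it. The other 82 had no array at log2 4, and 74 of them stayed under log2 2.5 on every array. In the 65A group (Lcp65, Acp65 and Cpr65A genes) 5 of 14 probe sets reached the filter, against 3 of 24 Twdl probe sets, 19 of 66 other Cpr probe sets, 0 of 4 Ccp84 probe sets, and not the single Lcp9 probe set. The cut divides a narrow range. Just inside it lay Cpr11A, whose highest value was 4.31, Lcp65Ag3 at 4.37 and Cpr97Eb at 4.46. Just outside lay Cpr47Eg, whose highest value was 3.78.

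**Figure D1:**
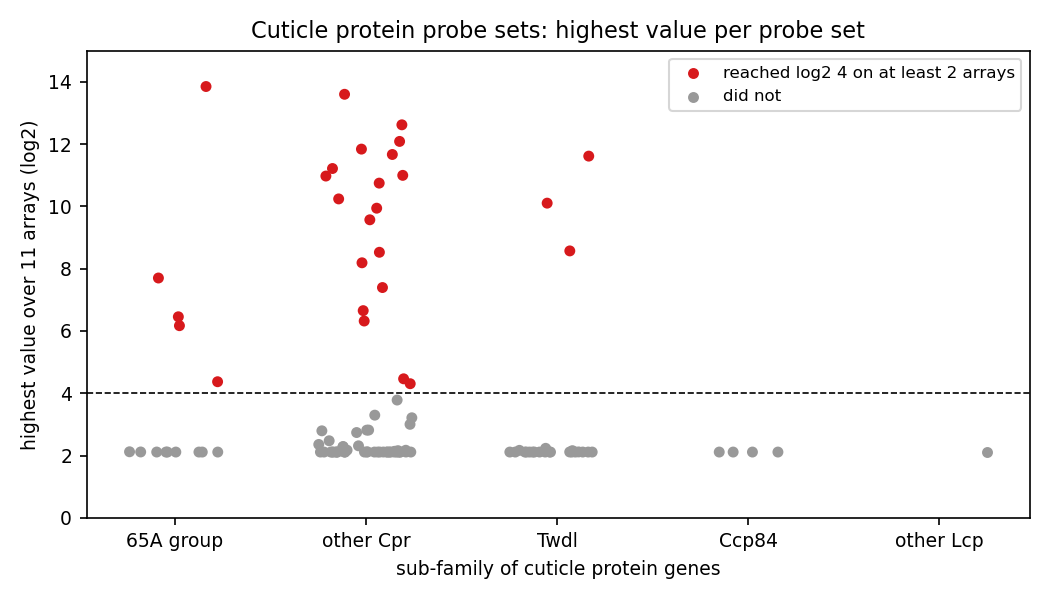
Highest log2 value of each of the 109 cuticle protein probe sets over the 11 arrays (vertical axis), by sub-family (horizontal axis, points spread sideways for legibility). Red points reached log2 4 (dashed line) on at least 2 arrays, and most grey points lie near the lowest value of the table, 2.11.

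Neighbouring genes often differed in detection. In the RefSeq order of genes along the chromosome, Lcp65Ag3, Cpr65Au, Lcp65Ag2 and Lcp65Ag1 are adjacent members of the 65A cluster and all had a probe set that reached the filter. Lcp65Af, Lcp65Ae, Cpr65Av, Cpr65Aw and Lcp65Ad follow and did not reach it, while the next gene, Lcp65Ac, did. Acp65Aa, an adult cuticle protein gene near the far end, did, and Lcp65Aa beside it did not. In the 47E cluster Cpr47Ed and Cpr47Ee reached the filter and Cpr47Ea, Cpr47Eb, Cpr47Ec, Cpr47Ef and Cpr47Eg did not. In the 49A cluster Cpr49Ae and Cpr49Ag did and Cpr49Aa, Cpr49Ab, Cpr49Ac, Cpr49Ad, Cpr49Af and Cpr49Ah did not.

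The remaining probe sets below the filter, for which no values are given, named Ccp84Aa with Ccp84Ab, Ccp84Ac, Ccp84Ae, Ccp84Ag, Cpr12A, Cpr23B, Cpr30B, Cpr30F, Cpr31A, Cpr35B, Cpr50Ca, Cpr50Cb, Cpr56F, Cpr5C, Cpr62Ba, Cpr64Aa, Cpr64Ab, Cpr64Ac, Cpr64Ad, Cpr65Ax1 with Cpr65Ax2, Cpr65Az, Cpr65Ea, Cpr65Eb, Cpr65Ec, Cpr66Cb, Cpr67Fa1, Cpr67Fa2, Cpr67Fa2 with Cpr67Fa1, Cpr67Fb, Cpr72Ea, Cpr72Eb, Cpr76Ba, Cpr76Bb, Cpr76Bc, Cpr76Bd, Cpr78Ca, Cpr78Cb, Cpr78E, Cpr92A, Cpr92F, Cpr97Ea, TwdlB, TwdlC, TwdlD, TwdlF, TwdlH, TwdlK, TwdlL, TwdlM, TwdlN, TwdlO, TwdlP, TwdlQ, TwdlR, TwdlS, TwdlV, TwdlW, TwdlX, TwdlY, TwdlZ, Twdlalpha and Twdlbeta. Of the members that did reach it, 22 were at or above log2 4 on all 11 arrays, and 5 fell below it on some.

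The arrays carried markers of the labelled tissue. The log2 of the summed unlogged signal of 3 photoreceptor markers lay between 16.3 and 16.8 in every group. Of 5 markers of head epidermis and cuticle 4 reached the filter, among them grh, a regulator of cuticle formation, and stw, the laccase that hardens cuticle, while the chitin synthase gene kkv did not. Heads are mixed tissue, so fewer cells of a type and less RNA per cell cannot be told apart in any value given here.

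Paraquat lowered 1 of the measured cuticle genes past the test, and the other 26 did not pass. With the paraquat effect averaged over flies without and with nicotine, limma called 0 of the 27 members higher and 1 lower, Lcp65Ac, at a Benjamini-Hochberg adjusted p below 0.05. That is 3.70% of the members, beside 3.69% of all 9104 probe sets tested (2.93% higher and 0.758% lower). Of the members 18 were at lower values with paraquat and 9 at higher values, and the median difference was -0.11 log2, beside -0.0073 over all probe sets tested. Without plain food replicate 3, 22 were at lower values and the median was -0.26. For 18 of 27 members the 95% interval of the difference lay within 1 log2 (2-fold) of zero, beside 74.0% of all probe sets tested.

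Lcp65Ac encodes a chitin-binding cuticle protein of the 65A cluster. Its log2 values were 3.51, 4.15 and 2.67 with both agents and 3.87 and 2.47 with paraquat, against 6.17, 5.27 and 5.69 with nicotine and 4.51, 5.37 and 4.18 on plain food. It reached log2 4 on all 6 arrays without paraquat and on 1 array with it, so it entered the test through the groups in which it was high. All 5 paraquat arrays lay below all 6 arrays without paraquat, although the highest paraquat value, 4.15, was next to the lowest plain food value, 4.18. The averaged difference was -1.89 ± 0.37 log2 (SE, adjusted p = 0.0252, limma). Because 4 of the 5 paraquat arrays were below log2 4, values under log2 4 were set to 4 for the size, which was not tested. The estimate for Lcp65Ac was then 2.26-fold lower with paraquat.

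The call on Lcp65Ac rested on the flies without and with nicotine together. Paraquat against plain food gave -1.52 ± 0.55 log2 (adjusted p = 0.343, limma) and paraquat with nicotine against nicotine -2.27 ± 0.49 (adjusted p = 0.106). The call was lost without plain food replicate 2 (adjusted p = 0.0588), paraquat replicate 3 (0.148), nicotine replicate 1 (0.0690) or nicotine replicate 3 (0.0618), and with RNA integrity, read from control transcripts as the mean of their 3' signal minus their 5' signal, as a covariate (0.0603), and with no filter on low values (0.118). Over all 18 alternatives that tested it the difference ran from -2.39 to -1.54 log2.

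**Figure D2:**
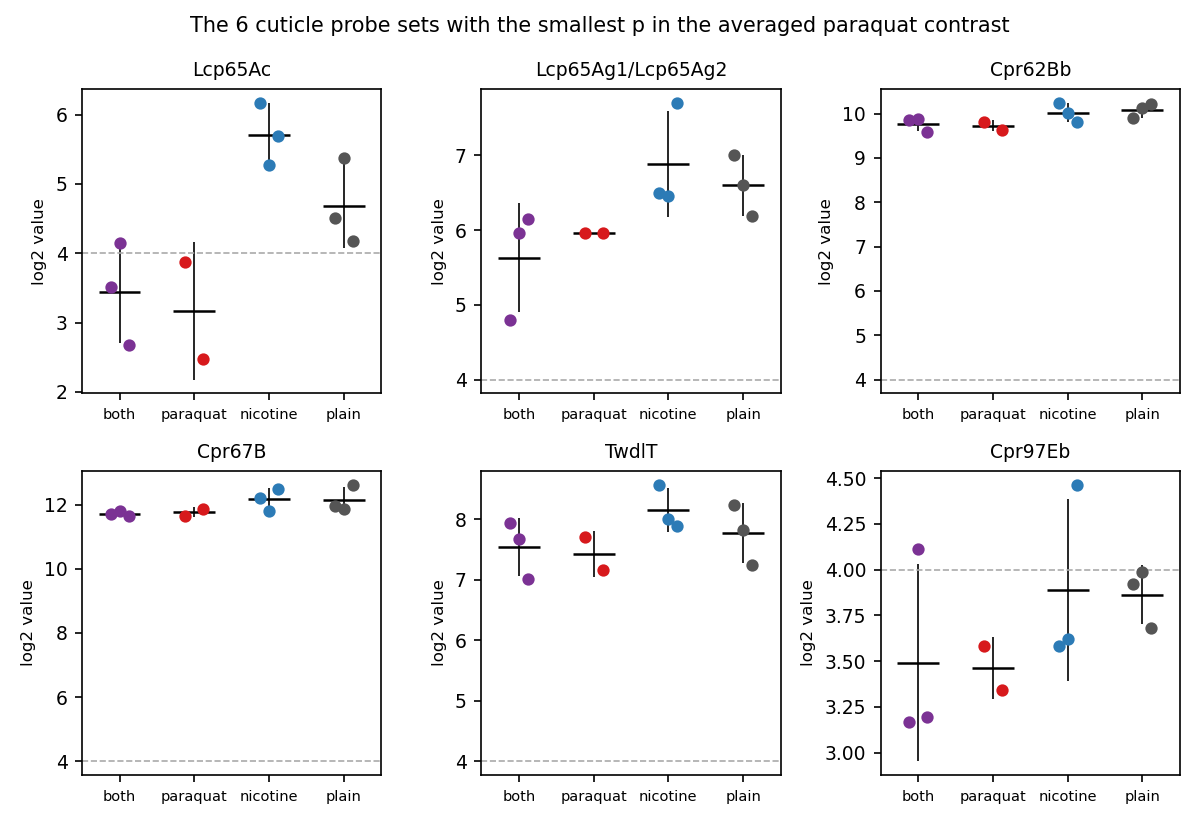
Log2 value on each array (points) of the 6 members with the smallest p in the averaged paraquat contrast, with group mean (bar) and SD (line), for flies given both agents ("both"), paraquat, nicotine or plain food. The dashed line is log2 4, and vertical scales differ between panels. Lcp65Ac has its 5 paraquat arrays between 2.47 and 4.15 and the other arrays between 4.18 and 6.17.

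A second 65A probe set, shared by the near-identical genes Lcp65Ag1 and Lcp65Ag2 and unable to separate them, also had no overlap between arrays. It read 4.79, 5.96 and 6.15 with both agents and 5.96 on each of the 2 paraquat arrays, against 6.50, 6.46 and 7.70 with nicotine and 7.0, 6.60 and 6.19 on plain food. The averaged difference was -0.95 ± 0.32 log2 and did not pass (adjusted p = 0.155, limma). These were the 2 of 27 members whose paraquat arrays all lay lower, where 1.99% of all probe sets did so, and 0 members had all of them higher, where 4.17% did.

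The arrays with and without paraquat overlapped for the other members of the 65A group. Cpr65Au lay between 12.90 and 13.85 on all arrays, with a difference of -0.21 ± 0.19 log2 (adjusted p = 0.622). Acp65Aa ranged from 4.85 to 6.46 and differed by -0.23 ± 0.29 (adjusted p = 0.747). Lcp65Ag3 was near the filter value, above log2 4 only on paraquat replicate 2 (4.37) and nicotine replicate 3 (4.29), and differed by 0.19 ± 0.35 (adjusted p = 0.853).

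Among Cpr genes outside the 65A group the differences with the smallest p were small ones. Cpr62Bb read 9.85, 9.89 and 9.59 with both agents and 9.82 and 9.64 with paraquat, against 10.24, 10.02 and 9.81 with nicotine and 9.89, 10.12 and 10.22 on plain food. The averaged difference was -0.30 ± 0.13 log2 (adjusted p = 0.272, limma), and the groups overlapped. Cpr67B averaged 11.74 over the paraquat group means and 12.15 over those without paraquat, a difference of -0.41 ± 0.18 (adjusted p = 0.288). Cpr97Eb differed by -0.40 ± 0.23 (adjusted p = 0.422), with 9 of its 11 values below log2 4.

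Of the Tweedle genes TwdlT read 7.94, 7.68 and 7.01 with both agents and 7.70 and 7.15 with paraquat, against 8.57, 8.0 and 7.89 with nicotine and 8.24, 7.82 and 7.25 on plain food. Its groups overlapped, and its difference of -0.48 ± 0.25 log2 did not pass (adjusted p = 0.371, limma). In the RefSeq table TwdlT lies within the span of the receptor gene RYa-R. TwdlG (-0.07 ± 0.22, adjusted p = 0.923) and TwdlE (0.03 ± 0.23, adjusted p = 0.967) were nearer zero. For TwdlG the 95% interval ran from -0.57 to 0.43 log2, and for TwdlE from -0.48 to 0.54.

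The corneal lens protein genes Cpr66D and Cpr72Ec, whose products are deposited over the facets of the eye, showed no paraquat difference past the test. Cpr72Ec lay between 12.93 and 13.60 on all 11 arrays, and its difference of 0.11 ± 0.18 log2 (adjusted p = 0.816, limma) had an interval from -0.28 to 0.51. Cpr66D differed by -0.27 ± 0.37 (adjusted p = 0.777), with a wider interval, from -1.11 to 0.56. The other Cpr probe sets had averaged differences between -0.37, for a probe set shared with Obp57d, and 0.24, for Cpr11A, and none passed.

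Without nicotine and with nicotine taken separately, no member was called. Paraquat against plain food called 0 of 27 by limma (background 0.341%), with 1 member at an unadjusted p below 0.05, where 10.5% of all probe sets were. Of the members 14 were at lower values and the median difference was -0.00063 log2. All paraquat arrays lay lower for 5 members, where 12% of all probe sets did so: Lcp65Ac, Cpr62Bb, Cpr97Eb, Cpr60D and the Lcp65Ag1 and Lcp65Ag2 probe set. Every Cpr97Eb value in that comparison was below log2 4. Paraquat added to nicotine called 0 of 27 (background 0.45%), with 2 members at an unadjusted p below 0.05, where 11.5% of all were. Here 19 were at lower values, with a median of -0.21 log2, and all arrays with paraquat lay lower for 3 members, where 6.83% of all did so, namely Lcp65Ac, the Lcp65Ag1 and Lcp65Ag2 probe set and Cpr65Au. Beside Lcp65Ac and the Lcp65Ag1 and Lcp65Ag2 probe set (-1.25 ± 0.43, adjusted p = 0.291), the smallest p on nicotine belonged to the probe set 1626386_at (-0.97 ± 0.49, 0.507) and TwdlT (-0.61 ± 0.33, 0.542). The probe set 1638679_at, which names the same genes as 1626386_at, was at 0.0070 ± 0.63 on nicotine. Against plain food the smallest p belonged, after Lcp65Ac, to Cpr62Bb (-0.35 ± 0.19, adjusted p = 0.609), Lcp65Ag3 and Cpr67B (-0.38 ± 0.27, 0.733). Lcp65Ag3, at 0.75 ± 0.52 (adjusted p = 0.718), had 1 array above log2 4 in that comparison, paraquat replicate 2.

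**Figure D3:**
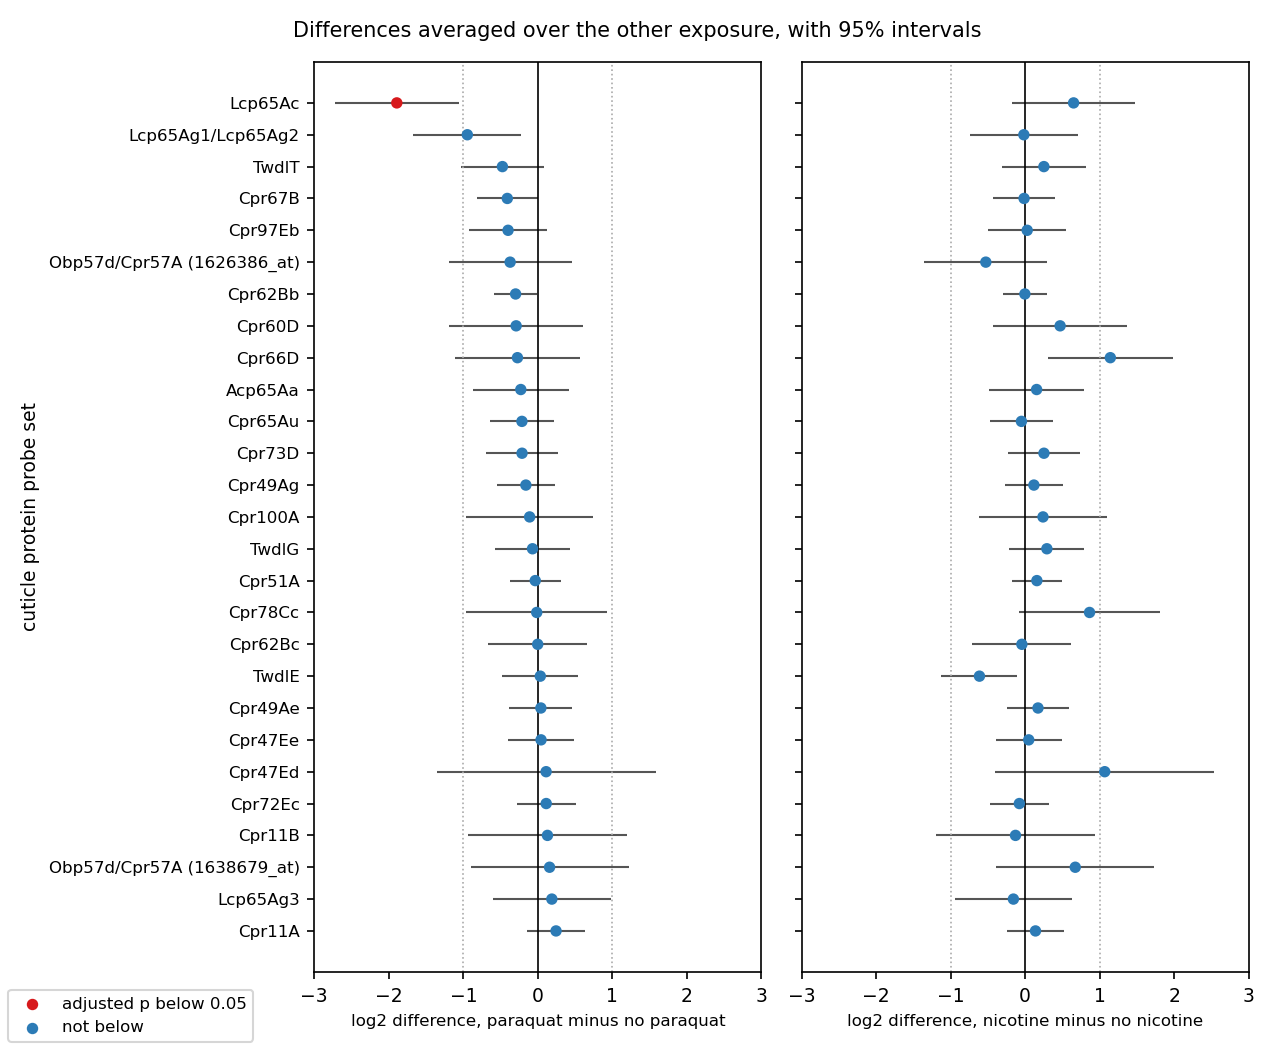
Difference in log2 (points) with its 95% interval (lines) for the 27 members, paraquat minus no paraquat on the left and nicotine minus no nicotine on the right, each averaged over the other exposure. Rows run from the most negative to the most positive paraquat difference, dotted lines mark 1 log2, and Lcp65Ac on the left, at -1.89, is the red point with an adjusted p below 0.05.

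Nicotine moved no cuticle gene past the test. Averaged over flies without and with paraquat, limma called 0 of 27 members and 0 of all 9104 probe sets (background 0%). At an unadjusted p below 0.05 there were 2 members (7.41%), Cpr66D and TwdlE, where 3.69% of all probe sets were. The members' median was 0.14 log2, with 17 at higher values, beside -0.041 over all probe sets tested, and was 0.032 without plain food replicate 3.

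Cpr66D, of the corneal lens, read 7.92, 7.91 and 7.28 with both agents, against 6.32 and 6.53 with paraquat. It read 8.53, 8.33 and 6.68 with nicotine, against 7.28, 7.18 and 6.04 on plain food. The paraquat pair did not overlap and the pair without paraquat did, since nicotine replicate 3 lay below 2 plain food arrays. The averaged nicotine difference was 1.14 ± 0.37 log2 (adjusted p = 0.833, limma), with an interval from 0.31 to 1.98. Cpr72Ec, of the same lens, was at -0.08 ± 0.18 in this contrast.

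TwdlE read 10.33, 11.39 and 10.78 with both agents, against 11.62 and 11.34 with paraquat, and 10.43, 11.28 and 10.79 with nicotine, against 11.50, 11.61 and 11.14 on plain food. In each pair 1 nicotine array overlapped the arrays without nicotine, and the averaged difference was -0.61 ± 0.23 log2 (adjusted p = 0.833, limma). Cpr78Cc was at 0.86 ± 0.42 (adjusted p = 0.833), with its highest value, 7.40, on replicate 1 of both agents and every other array between 4.46 and 6.17. Lcp65Ac was at 0.65 ± 0.37 (adjusted p = 0.833).

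Nicotine against plain food gave 23 of 27 members at higher values and a median difference of 0.27 log2, beside -0.014 over all probe sets, yet 0 members were called (background 0%) and 0 had an unadjusted p below 0.05, where 1.97% of all did. Lcp65Ac (1.02 ± 0.49), Cpr66D (1.01 ± 0.50), TwdlE (-0.58 ± 0.30) and TwdlG (0.43 ± 0.30) had the smallest p, each with an adjusted p of 1 (limma). The size of this shift depended on single arrays. The median was 0.086 log2 with 19 of 27 members at higher values without plain food replicate 3, and 0.12 with 17 of 27 without nicotine replicate 3. Without nicotine replicate 2 it was 0.42, with 21 of 27 at higher values.

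Plain food replicate 3 was low for many cuticle genes. It held the lowest of the 3 plain food values for 20 of 27 members (74.1%), where it did so for 42.4% of all probe sets tested, and the lowest of all 11 values for 10 members (37.0%, beside 19.7%). The largest gaps, chosen after the values were seen, were Cpr47Ed at 2.47 beside 5.11 and 5.47 on the other plain food arrays, Cpr100A at 7.54 beside 9.94 and 8.23, and the probe set 1638679_at, shared by Obp57d and Cpr57A, at 7.76 beside 10.34 and 10.18. Of the other arrays paraquat replicate 3 was the lower of its pair for 19 of 27 members (70.4%, beside 40.6%). Plain food replicate 3 also differed in the mean 3' minus 5' difference of 3 control transcripts, 5.87 log2 against 8.34 to 10.34 on the other 10 arrays, and its part in the low cuticle values was not tested.

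**Figure D4:**
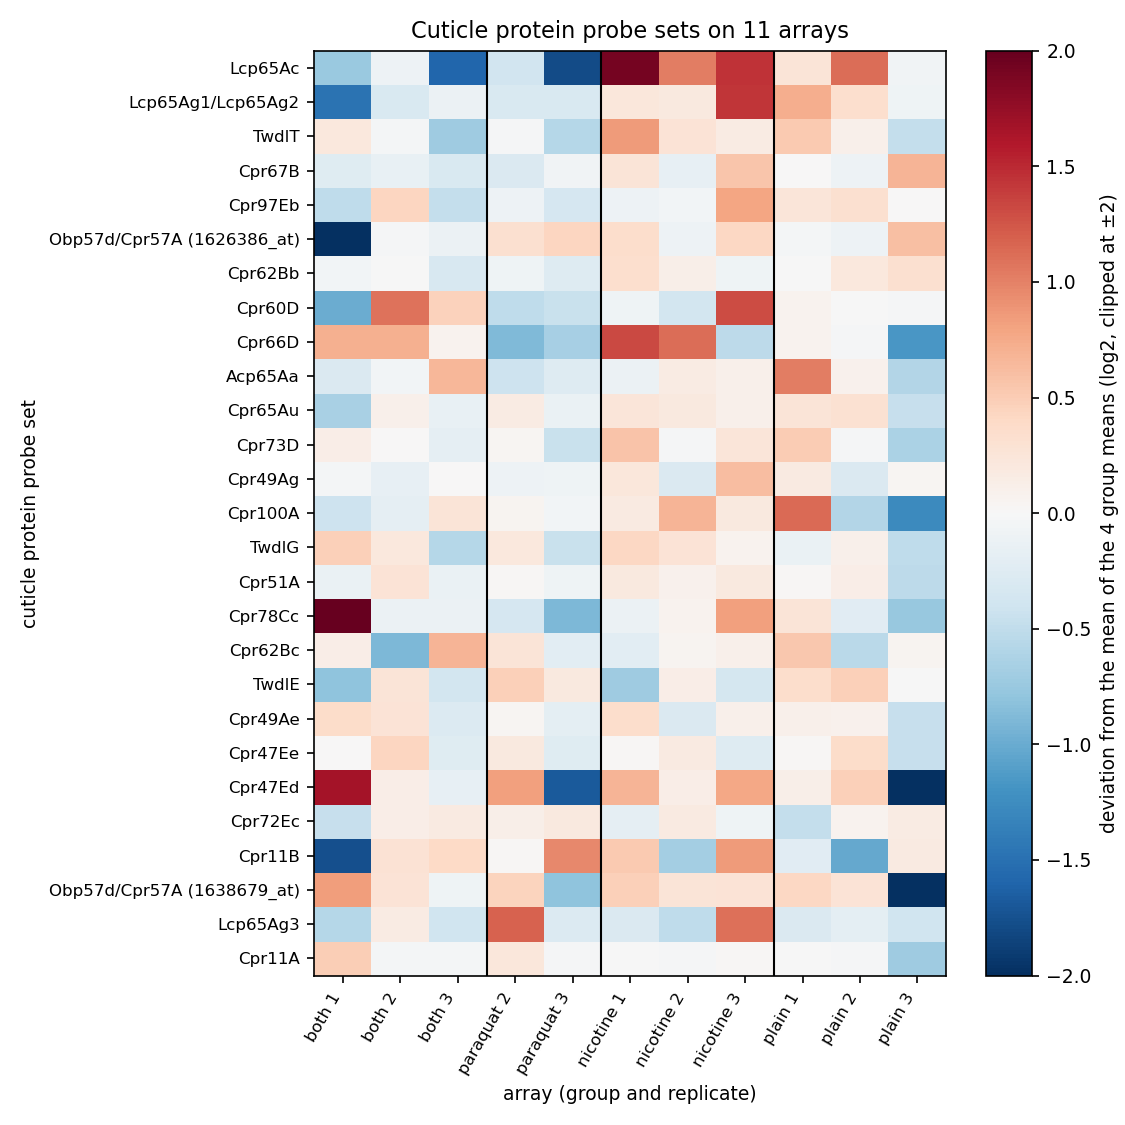
Deviation of each of the 27 members (rows, ordered by paraquat difference) from the mean of its 4 group means, in log2 and clipped at 2 in either direction, on 11 arrays (columns, grouped by exposure). The top row, Lcp65Ac, is blue on the paraquat arrays and red on the nicotine arrays, and the last column, plain food replicate 3, is blue for most members.

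Nicotine added to paraquat called 0 of 27 members (background 0%), with 1 at an unadjusted p below 0.05, where 3.02% of all were. The arrays did not overlap for 2 members that lay higher, Cpr66D and Cpr78Cc (background 5.01%), and 1 that lay lower, the probe set 1626386_at (13.2%). Cpr66D was at 1.28 ± 0.55 log2, Cpr78Cc at 1.22 ± 0.63 and TwdlE at -0.64 ± 0.34, each with an adjusted p of 0.962 (limma). The probe set 1626386_at, shared by Cpr57A and the odorant-binding protein gene Obp57d, was at -1.12 ± 0.55 (adjusted p = 0.962), a value that holds replicate 1 of both agents at 6.88 beside 8.95 and 8.85. The other probe set of these genes, 1638679_at, went the other way, at 0.52 ± 0.70. Both agents against plain food called 0 of 27 (background 0.33%), and 2 members had an unadjusted p below 0.05, where 16.5% of all did. The arrays did not overlap for 1 member that lay higher, Cpr66D (background 9.18%), and 4 that lay lower (10.5%), Lcp65Ac, the Lcp65Ag1 and Lcp65Ag2 probe set, Cpr62Bb and Cpr67B. The 2 with the small p were Lcp65Ac (-1.24 ± 0.49, adjusted p = 0.257, limma) and the Lcp65Ag1 and Lcp65Ag2 probe set (-0.96 ± 0.43, adjusted p = 0.303). With values under log2 4 set to 4, Lcp65Ac was at -0.64 log2, which was not tested. TwdlE (-0.58 ± 0.30, adjusted p = 0.363) and the probe set 1626386_at (-0.90 ± 0.49, adjusted p = 0.384) followed, while 1638679_at was at 0.83 ± 0.63. These comparisons share arrays with those above.

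The paraquat difference was not shown to depend on nicotine for any member. The interaction, the paraquat difference on nicotine minus that without, called 0 of 27 members (background 0%), and 0 had an unadjusted p below 0.05, where 1.23% of all did. The smallest p belonged to the probe set 1626386_at (-1.19 ± 0.74 log2), Lcp65Ag3 (-1.12 ± 0.70), Cpr11B (-1.45 ± 0.95) and Cpr65Au (-0.39 ± 0.38), each with an adjusted p of 1.0 (limma). Cpr11B lies within the gene hwt in the RefSeq table. Lcp65Ac was at -0.75 ± 0.74, and 1638679_at, of the same genes as 1626386_at, at -0.30 ± 0.94. The interval lay within 1 log2 of zero for 7 of 27 members, beside 38.4% of all probe sets tested. For most members a 2-fold dependence on nicotine thus lay within the error.

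Replicate spread differed widely among the members. The SD between replicate arrays ran from 0.18 log2 for Cpr62Bb to 1.23 for Cpr47Ed, with a median of 0.44, and 18 of 27 members lay above the median of all probe sets tested, 0.33. The SD was also low for Cpr51A (0.23), Cpr49Ag (0.28) and Cpr11A (0.28), the last of which was below log2 4 on 9 of 11 arrays with 1 value repeated on 3 of them. It was high for Cpr11B (0.88) and Cpr78Cc (0.78).

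Cuticle genes outside the symbol rule were taken from lists of known genes, 1 probe set per gene. Among 9 tested structural cuticle genes paraquat raised Pcp and lowered CG7214, and 7 did not pass (2 of 9 called, beside 3.69% of all probe sets). Pcp, the pupal cuticle protein gene, read 3.68, 4.27 and 6.59 with both agents and 5.01 and 7.69 with paraquat, against 2.31, 2.32 and 2.31 with nicotine and 2.45, 2.40 and 2.31 on plain food. It reached log2 4 on 4 paraquat arrays and on none without paraquat. It thus entered the test, and the count of 2 of 9, only through the groups in which it was high. All paraquat arrays lay above the others, and the averaged difference was 3.25 ± 0.58 log2 (adjusted p = 0.0168, limma). With values under log2 4 set to 4 for the size, which was not tested, the estimate for Pcp was 3.15-fold higher. Pcp lies within the gene Gart in the RefSeq table, and the probe set of Gart, a purine synthesis gene, was at 0.86 ± 0.40 log2 (adjusted p = 0.318).

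CG7214 read 4.61, 3.87 and 4.78 with both agents and 3.65 and 3.63 with paraquat. Against these stood 5.60, 5.98 and 7.95 with nicotine and 6.41, 6.03 and 6.04 on plain food, without overlap. The averaged paraquat difference was -2.31 ± 0.40 log2 (adjusted p = 0.0136, limma). With values under log2 4 set to 4 for the size, which was not tested, the estimate for CG7214 was 4.30-fold lower with paraquat. Pcp and CG7214 each lost their call without paraquat replicate 3 (adjusted p = 0.0839 for both), and with no filter on low values (0.103 for Pcp and 0.0834 for CG7214), and CG7214 also without paraquat replicate 2 (0.0525). Edg91, an ecdysone-dependent cuticle gene, was at -1.48 ± 0.59 log2 with paraquat (adjusted p = 0.221). It read 5.92, 4.93 and 5.15 with both agents and 5.92 on each paraquat array, against 9.35, 6.45 and 9.03 with nicotine and 5.92, 7.14 and 4.75 on plain food. Nicotine replicates 1 and 3 stood above all other arrays, and nicotine replicate 2 lay below plain food replicate 2. CG7203 (-0.27 ± 0.13, adjusted p = 0.354) and Vajk3 (-0.61 ± 0.45, adjusted p = 0.539) completed the structural genes named by the rule, and the list's median was -0.15 log2.

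In the apical matrix list paraquat lowered nompA, whose product caps the dendrites of mechanosensory neurons and ties them to the cuticle. It read 10.12, 12.04 and 10.94 with both agents and 10.60 and 10.61 with paraquat, against 13.31, 12.73 and 14.09 with nicotine and 13.04, 12.97 and 13.40 on plain food. The groups did not overlap, and the difference was -2.44 ± 0.35 log2 (5.42-fold lower, adjusted p = 0.00725, limma), with the call lost without paraquat replicate 3 (0.0579). The other 4 tested genes of that list did not pass, with the tendon and wing matrix gene dpy at -0.61 ± 0.37 (adjusted p = 0.436), pio at -0.17 ± 0.12 (0.523) and qsm at -0.07 ± 0.14 (0.863). The list's median was -0.17 log2, and 1 of its 5 tested genes was called, beside 3.69% of all probe sets.

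**Figure D5:**
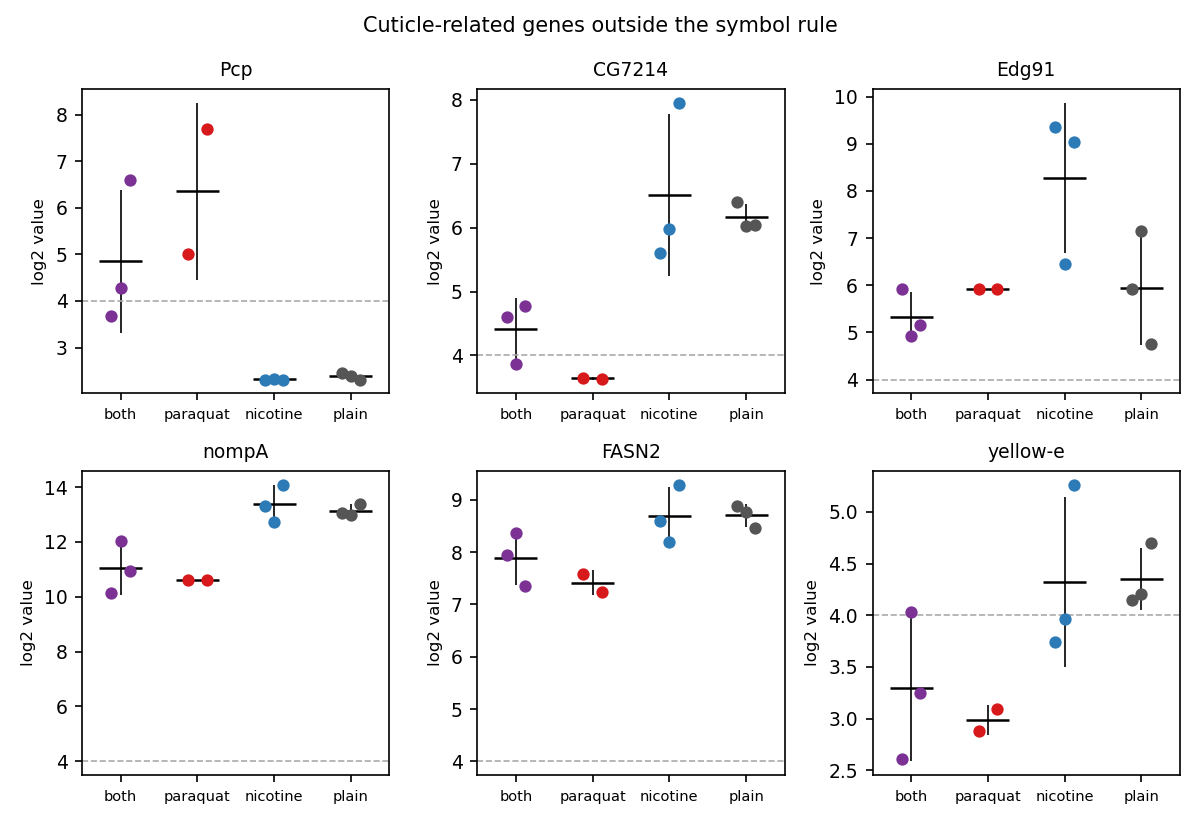
Log2 value on each array (points) with group mean (bar) and SD (line) for 6 cuticle-related genes outside the symbol rule, in flies given both agents ("both"), paraquat, nicotine or plain food. The dashed line is log2 4, and scales differ between panels. Pcp is above the other groups on all 5 paraquat arrays, while CG7214 and nompA are below them.

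Among enzymes that build and modify the cuticle 1 passed the test, beside 3.69% of all probe sets called in either direction and 0.758% called lower. Of 23 tested genes for chitin synthesis, deacetylation and turnover limma called 0 with paraquat (median -0.06 log2), with Idgf5 at -1.09 ± 0.38 (adjusted p = 0.165), Idgf2 at -0.63 ± 0.23 (0.189) and the chitin deacetylase gene serp at 0.46 ± 0.17 (0.197) having the smallest p. Of 14.0 tanning and melanisation genes 0 were called (median -0.26), with yellow-e, near the filter value, at -1.20 ± 0.33 (adjusted p = 0.0871), the N-acetyltransferase gene speck at -0.43 ± 0.18 (0.261) and the prophenoloxidase gene PPO2 at -0.39 ± 0.18 (0.283). Of 8 hydrocarbon and wax genes 1 was called lower (median -0.19), the fatty acid synthase gene FASN2. It fell by 1.05 ± 0.24 log2 (adjusted p = 0.0499), with the call lost under 14 of 19 alternatives, and FASN1 (-0.44 ± 0.12, 0.0871) and Desat1 (-0.21 ± 0.12, 0.418) followed.

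Of 14 ecdysone and cuticle transcription regulators 0 were called with paraquat (median -0.17 log2), beside 3.69% of all probe sets. Blimp-1 (-0.34 ± 0.18, adjusted p = 0.380, limma), br (-0.34 ± 0.18, 0.389) and grh (-0.35 ± 0.19, 0.401) had the smallest p. In the other 7 contrasts 0 genes of the 6 lists were called by limma, where between 0% and 0.45% of all probe sets were.

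Markers of some other tissues moved beside these values. Of the 4 tested markers of head epidermis and cuticle 2 were higher and 2 lower in the averaged paraquat contrast, with a median of -0.13 log2. Markers of photoreceptors, glia, muscle, haemocytes and trachea also went both ways. All 4 tested head fat body markers were lower with paraquat. The log2 of their summed unlogged signal lay between 16.6 and 17.6 with both agents and between 17.07 and 17.11 with paraquat. It was 17.5 to 17.6 with nicotine and 17.5 to 17.7 on plain food. The fat body marker Fbp1 did not reach the filter. All 5 neuronal markers were lower with paraquat. The log2 of their summed unlogged signal lay between 12.99 and 13.5 with both agents and 13.3 and 13.5 with paraquat. It was 13.6 to 13.9 with nicotine and 13.8 to 14.4 on plain food. All 6 digestive tract markers were higher in the averaged contrast. The log2 of their summed unlogged signal lay between 13.3 and 16.1 with both agents and 10.6 and 11.5 with paraquat. It was 8.09 to 13.5 with nicotine and 9.10 to 12.99 on plain food. Mal-A4 did not reach the filter, and Jon25Bi stood at the lowest value of the table, 2.11, on 7 arrays. Paraquat against plain food had 1 of the 6 higher and 5 lower, with a median of -0.23 log2, and paraquat added to nicotine had all 6 higher, with a median of 3.86. None of these markers was called by limma. Of all probe sets 3.69% were called in the averaged paraquat contrast, 0.341% for paraquat against plain food and 0.45% for paraquat added to nicotine. The markers' part in the differences of Lcp65Ac, Pcp, CG7214 and nompA was not tested.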

How the data were processed

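Total RNA of pooled heads was amplified from the 3' end, biotin-labelled and hybridised to Affymetrix Drosophila arrays, per the labels' protocols. The deposited values are log2 expression per probe set, and the submitters' processing notes name GCRMA, with version and settings not given in the sources used here. GCRMA adjusts background and normalizes quantiles, so low values share a floor: 39.9% of values lay within 0.01 of the minimum, 2.11.

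From there, 183 control probe sets were left out, 9104 probe sets reaching log2 4 on at least 2 arrays were kept, and limma (3.58.1, R 4.3.3; lmFit, eBayes, 1 mean per group, 7 residual and 2.48 prior degrees of freedom) was fitted to all 11 arrays with no block. Benjamini-Hochberg adjustment ran over all 9104 within each of 8 contrasts, called below 0.05, two-sided. Errors after ± are SE. Precision is limited by the number of arrays. The labels call the replicates biological but name no separate cultures, so a p-value here reflects the spread among these pooled samples alone.

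Between 8729 and 9001 probe sets reached log2 4 per array, and replicate 1 of both agents correlated least with the others (mean r = 0.914 across probe sets). The fit was tested on simulated data in which 200 probe sets were changed in the paraquat groups. The averaged paraquat contrast called 56% of changes of 1 log2 and 87% of changes of 2 log2, with 9 false calls. The simulated noise was independent between arrays and probe sets, without arrays that stand apart.

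Named were all called members, the 6 with the smallest p in the averaged paraquat contrast, the 4 smallest in each other contrast, and for the lists the called genes and up to 3 others. Members, lists and tests were chosen with earlier results of these data known. Alternatives were other filters, an intensity trend in the prior with robust fitting, fits on the compared arrays alone, median centring, array weights, a replicate block, a 3' minus 5' covariate and leaving out each array. Symbols come from the platform annotation, those of the lists updated through RefSeq (Release 6). The sources name no genome build, so no coordinates are given.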

Additional observations from a re-analysis of the deposited data

How the results depend on the processing

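The number of members called with the averaged paraquat contrast was 1, and ran from 0 to 1 when single arrays were left out, where the lone paraquat array that then remained was assumed to vary like the other groups. It was 0 with no filter on low values, and 0 with a filter at log2 6, under which Lcp65Ac was not among the probe sets tested. It was also 0 with the 3' minus 5' covariate, and 0 without plain food replicate 3 and replicate 1 of both agents together, an alternative chosen after seeing the data (Lcp65Ac adjusted p = 0.0533). Array weights gave 4 (Lcp65Ac, TwdlT, Cpr62Bb and the Lcp65Ag1 and Lcp65Ag2 probe set), 14.8% of members beside 17.9% of all probe sets. With array weights the count was 1 for paraquat against plain food and 1 for paraquat added to nicotine, which otherwise ran from 0 to 1 on leaving out single arrays (1 without replicate 2 of both agents). Except for filter construction, the causes were not tested. The counts of the other 5 contrasts were 0 under every alternative run. Over all probe sets the averaged paraquat calls numbered 336, 137 with no filter, 1627 with array weights and 53 without paraquat replicate 3.

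The replicate numbers were not used to pair the arrays in the main fit. In their deviations from group means 6 of 15 same-numbered pairs correlated under 0.1. Same-numbered pairs had a median of 0.16 and the 30 other pairs -0.086, with 25 under 0.1, and all 6 pairs among the replicate 3 arrays were above 0.1. Same-numbered arrays were thus the more alike, and whether they share an origin was not tested. With the replicate block the averaged paraquat count was 1 (Lcp65Ac, -1.86 log2, adjusted p = 0.0210), and the other contrasts had 0. The interaction of Cpr65Au, -0.39 log2, turned to 0.059 without plain food replicate 3 and replicate 1 of both agents. The members' median for paraquat against plain food ran from -0.26 to 0.13 log2 on leaving out single arrays, -0.26 without plain food replicate 3. Values near log2 4 limit what can be said of Lcp65Ac, Lcp65Ag3, Cpr97Eb and Cpr11A.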

Other observations

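The probe sets 1626386_at and 1638679_at both name Obp57d and Cpr57A, and differed from each other in their pattern over the arrays. On replicate 1 of both agents 1626386_at had its lowest value, 6.88, and 1638679_at its highest, 10.75. On plain food replicate 3 the order was turned round, with 9.57 for 1626386_at, its highest value, and 7.76 for 1638679_at, its lowest.

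Some probe sets repeated 1 value, equal after rounding to 5 decimals, on several arrays. Among the members this held for Cpr78Cc, at 5.24 on 3 arrays, Cpr11A, at 3.79 on 3, and Cpr62Bc, at 5.70 on 2. Among related genes Edg91 stood at 5.92 on 4 arrays. Of all probe sets tested 10.6% had such a value.

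Deviations from the group means correlated more between members than between probe sets in general, with a mean r of 0.14 over pairs of the 27 members beside 0.018 over all tested pairs, across 11 arrays. The arrays share normalization, and this is a description only.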
